A study of Mus musculus with 12 samples.

Results

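Aminoacyl-tRNA synthetase genes were followed through messenger RNA sequencing of mouse HSPCs, the stem and progenitor cells of the bone marrow that give rise to blood. The 36 genes were taken as a named set, found by their symbols in the GENCODE M21 annotation of the GRCm38 (mm10) assembly, out of 54532 gene IDs in the count table. All 36 passed the filter on low counts, as 16675 genes of the table did. By compartment, 18 encode cytosolic enzymes, 16 encode mitochondrial enzymes, and 2 (Gars and Kars) encode the enzyme of both compartments. Mars, the cytosolic methionyl enzyme, is not in the set and is given only where named.

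The 12 libraries formed 4 groups of 3: aged cells cultured with uridine, aged cells cultured with vehicle, aged cells left uncultured, and young cells left uncultured. Uridine, a pyrimidine nucleoside, is a substrate of nucleotide salvage. All groups were labelled as wild type and as bone marrow. The genotype labels carry a C57BL name whose number climbs by 1 from sample to sample after the vehicle group, so the strain is uncertain. The sources used here do not give the mouse ages, how the cells were sorted, how long they were cultured or how much uridine was added. Nothing in the labels ties the 3 libraries of a group to different animals or culture wells, so p-values cover the spread between these libraries alone, and that spread may be technical.

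Aminoacyl-tRNA synthetases join each amino acid to its transfer RNA, the step that sets which amino acid a codon stands for. Cytosolic enzymes serve the ribosomes that read nuclear messages, and a separate, nuclear-encoded set is imported into mitochondria to serve the ribosomes that build respiratory chain subunits. Several cytosolic enzymes (those encoded by Eprs, Iars, Lars, Qars, Rars, Kars and Dars here, with the methionyl enzyme) sit in a multisynthetase complex held by the scaffolds Aimp1, Aimp2 and Eef1e1. Many cytosolic synthetase genes are known targets of ATF4, the transcription factor translated when amino acids run short, which binds a composite C/EBP-ATF element. Protein synthesis is known to be kept low in haematopoietic stem cells.

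Promoter sequence is shown first because 1 element, of those searched, occurred in several cytosolic and in none of the mitochondrial windows. RefSeq windows on GRCm38.p6, from 250 bases before to 50 bases after the annotated start, were at hand for 27 of the 36 genes (11 cytosolic, both genes of shared compartment and 14 mitochondrial). The core of the composite element, TGATGCAA on either strand (TTGCATCA when read on the other), occurred in 4 of the 11 cytosolic windows, in 0 of the 14 mitochondrial windows and in 0.895% of all 32851 windows of that length. The 4 genes were Aars, Iars, Tars and Yars, the alanyl, isoleucyl, threonyl and tyrosyl enzymes. The capitals below mark that core, and Tars2, the mitochondrial threonyl enzyme, is shown as a window without it. The Aars and Tars stretches run from base -150 to base -1 relative to the start and the Iars and Yars stretches from base -100 to base 20, each on the gene's own strand.
Aars (chr8:111033692-111033841, plus strand): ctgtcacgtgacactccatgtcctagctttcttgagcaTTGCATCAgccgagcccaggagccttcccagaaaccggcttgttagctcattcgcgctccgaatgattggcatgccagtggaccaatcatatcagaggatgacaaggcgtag
Iars (chr13:49682030-49682149, plus strand): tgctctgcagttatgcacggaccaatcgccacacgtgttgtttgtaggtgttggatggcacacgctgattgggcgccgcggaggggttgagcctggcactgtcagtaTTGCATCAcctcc
Tars (chr15:11399659-11399808, minus strand): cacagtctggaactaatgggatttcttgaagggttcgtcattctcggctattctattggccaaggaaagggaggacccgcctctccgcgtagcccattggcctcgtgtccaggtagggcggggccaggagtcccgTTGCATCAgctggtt
Yars (chr4:129189803-129189922, plus strand): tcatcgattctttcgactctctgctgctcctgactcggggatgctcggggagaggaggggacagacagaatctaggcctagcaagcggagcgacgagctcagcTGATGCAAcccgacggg
Tars2 (chr3:95754978-95755127, minus strand): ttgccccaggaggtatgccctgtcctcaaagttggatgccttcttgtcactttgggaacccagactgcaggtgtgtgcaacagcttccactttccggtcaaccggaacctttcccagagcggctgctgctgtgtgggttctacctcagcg

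The core lay at bases -112 to -105 in Aars, -15 to -8 in Tars, 4 to 11 in Yars and 8 to 15 in Iars. With 1 base left free (TGATGNAA), Gars joined these 4 with a match at bases -30 to -23, and 3.97% of all windows held one. The E-box CACGTG, a sequence read by MYC and related factors, occurred in the windows of Aars, Farsb, Iars and Tars among cytosolic genes, in that of Ears2 among mitochondrial genes, and in 7.15% of all windows. The NRF1 sequence (GCGCA and GCGC with 1 free base between them) was in 2 of 11 cytosolic, 2 of 14 mitochondrial and 4.60% of all windows, and the ETS sequence CCGGAAG in 2 of 11, 4 of 14 and 8.86%. Qars alone among the members' windows held a pair of GAAA runs set 2 bases apart, part of an interferon response element, which 3.44% of all windows held. A match describes the letters in these windows and is not evidence of a bound factor.

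Library totals ran from 16785065 to 19025802 counts, and the members' levels are given in CPM, counts scaled to library size and corrected by TMM. Of 7 markers of progenitor cells, all were read in every group, but at levels that differed. Kit lay between 198 and 277 CPM and Cd34 between 192 and 412 CPM over the 12 libraries. Ly6a, the stem cell antigen Sca-1, lay at 250 to 265 CPM in uridine cultures, 441 to 465 CPM in vehicle cultures, 242 to 252 CPM in uncultured aged cells and 16.9 to 18.8 CPM in young cells. Mpo, of early myeloid cells, lay at 3526 to 3557 CPM in uridine cultures, 2119 to 2207 CPM in vehicle cultures, 7094 to 7453 CPM in uncultured aged cells and 5924 to 6096 CPM in young cells. Flt3, a receptor of multipotent progenitors, lay between 91.2 and 191 CPM, with young cells highest.

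Markers of other cells differed between the groups. In the uncultured aged libraries immunoglobulin genes and Jchain took 21.6% to 21.9% of the counts, against 0.540% to 0.924% in the other libraries, and the sum of 8 plasma cell markers was 25634 to 25891 CPM, against 634 to 1092 CPM in the other groups. The sums of the other lists follow in the order uridine culture, vehicle culture, uncultured aged and uncultured young. The 6 B cell markers summed to 190 to 209, 40.0 to 43.2, 1776 to 1862 and 526 to 534 CPM. The 7 markers of mature neutrophils summed to 1910 to 1979, 287 to 295, 515 to 549 and 5059 to 5281 CPM. The 7 erythroid markers summed to 111 to 113, 5.66 to 7.85, 89.6 to 100.2 and 321 to 330 CPM, with Slc4a1 at 0 counts in vehicle cultures. The 4 stromal markers summed to 143 to 153, 1.75 to 2.53, 11.3 to 12.3 and 509 to 538 CPM. The 6 macrophage markers summed to 467 to 485, 654 to 673, 124 to 135 and 236 to 247 CPM, the 4 T cell markers to at most 37.6 CPM in any library, and the 4 markers of dividing cells to 1843 to 1868, 1520 to 1563, 931 to 975 and 2299 to 2375 CPM. Thus B cell, neutrophil, erythroid and stromal sums in uridine cultures lay between those of vehicle cultures and those of young cells, without overlap. The same held for the progenitor, plasma cell, macrophage, T cell and dividing-cell sums, so for every list of markers used here. Over the whole table, the uridine mean lay between the vehicle and the young mean in 70.5% of the 16675 genes tested. Whether the uridine libraries hold RNA of other samples was not tested. The part of these markers in the synthetase values below was not tested either, and in bulk samples fewer cells of a type cannot be told apart from less RNA per cell. Leaving immunoglobulin genes and Jchain out before scaling kept the direction of every called member. It removed 1 call (Cars2 in aged against young cells, edgeR adjusted p = 0.0532). It also added 1 call, Hars2 lower in vehicle cultures than in uncultured aged cells (edgeR adjusted p = 0.0484).

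Cytosolic synthetases were the more abundant class. In TPM (counts per length of the union of all exons, scaled to the same total in each library and averaged over the 12 libraries), the 18 cytosolic genes had a median of 75.4 TPM and ran from 9.70 TPM for Tarsl2 to 278 TPM for Vars. The 16 mitochondrial genes had a median of 17.9 TPM and ran from 4.86 TPM for Nars2, the mitochondrial asparaginyl enzyme, to 37.8 TPM for Iars2, the mitochondrial isoleucyl enzyme. Gars and Kars, each serving both compartments, stood at 157 and 142 TPM. Tarsl2, which encodes a second threonyl enzyme, and Cars (28.5 TPM), the cysteinyl enzyme, were the 2 cytosolic genes inside the mitochondrial range of these means. Within the uncultured aged group Eprs (20.2 TPM) was inside it too, under Iars2 at 20.6 TPM. TPM levels are not comparable between groups, since immunoglobulin genes and Jchain held 47.4% to 48.3% of the fixed total in the uncultured aged libraries and at most 3.38% in any other: the cytosolic genes summed to 1820 TPM in uridine cultures, 1837 TPM in vehicle cultures, 891 TPM in uncultured aged cells and 1650 TPM in young cells. With the length of the principal transcript in place of all exons, the class medians were 84.3 and 22.1 TPM, and the highest mitochondrial gene was Tars2 at 65.7 TPM. Aars (63.7 TPM) and Tars (59.9 TPM) then lay inside the mitochondrial range too, so the genes inside it depend on the length used. In the uncultured aged group Eprs (58.4 TPM) then lay above Tars2 (44.8 TPM), the highest mitochondrial gene there. Other cytosolic genes, such as Iars (29.0 TPM), lay below it.

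Summed over the 18 genes, the cytosolic level was 2708 ± 9.31 CPM in uridine cultures, 2855 ± 11.7 CPM in vehicle cultures, 2765 ± 39.5 CPM in uncultured aged cells and 2505 ± 18.8 CPM in uncultured young cells (SD, n = 3 each). On the TPM scale given above the uncultured aged sum is below the young one instead. There immunoglobulin genes and Jchain held 47.4% to 48.3% of the fixed total in the uncultured aged libraries, so TPM sums are not comparable between groups. The order of these sums thus depends on the scale, whereas a ratio of classes within a library does not depend on library scaling. The mitochondrial sum was 587 ± 11.4, 570 ± 8.84, 574 ± 6.19 and 618 ± 10.1 CPM in the same order of groups. The ratio of the sums was thus highest in vehicle cultures at 5.01 and lowest in young cells at 4.06, with 4.62 in uridine cultures and 4.81 in aged cells without culture. Without Vars, the most abundant member, that ratio was 3.82 in uridine cultures, 4.21 in vehicle cultures, 3.38 in aged cells without culture and 3.27 in young cells. With counts weighted by principal transcript length and Vars kept, the ratio was 4.39 in uridine cultures and 4.38 in uncultured aged cells. It was still highest in vehicle cultures (4.74) and lowest in young cells (3.83). The order of uridine cultures and uncultured aged cells thus depends on the length weighting. Of the 18 cytosolic genes, 12 had their highest mean CPM in vehicle cultures. Of the 16 mitochondrial genes, 7 had their lowest mean there and 6 had their highest in young cells.

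**Figure D1:**
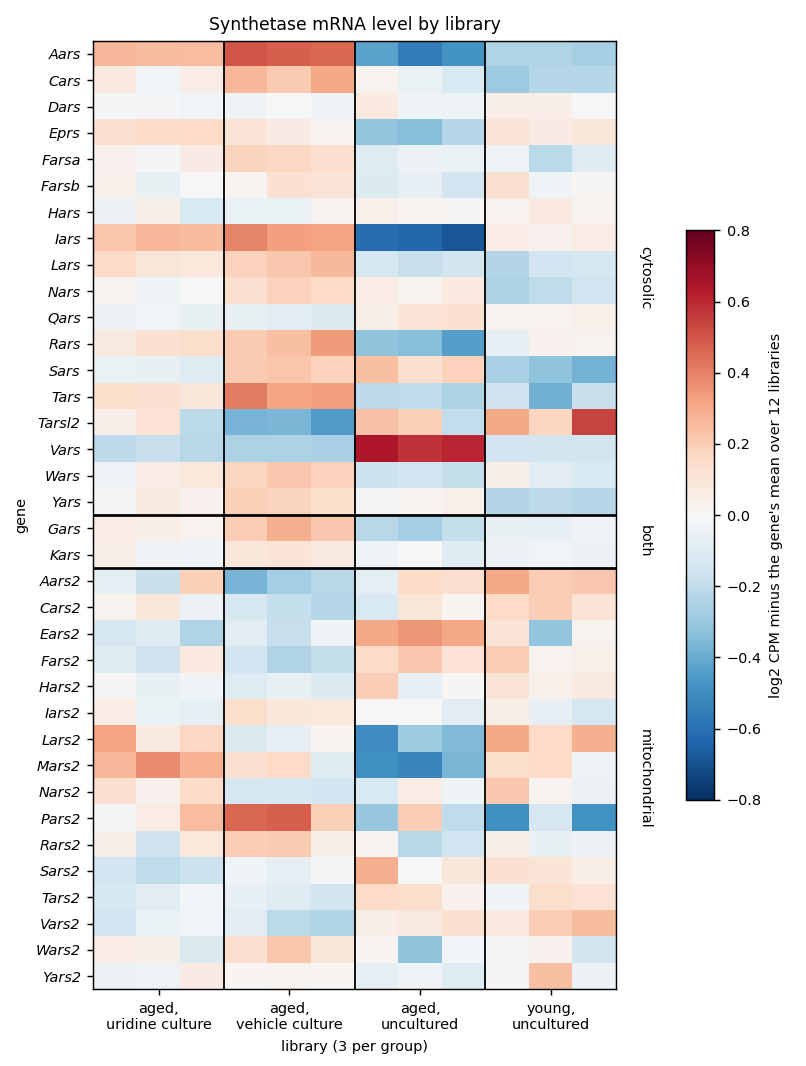
Level of each of the 36 synthetase genes in each of the 12 libraries, as log2 CPM minus the gene's mean over all libraries (colour), with 3 columns per group and lines between the cytosolic genes, Gars and Kars, and the mitochondrial genes. Aars, Iars and Tars are highest in vehicle cultures, and Vars is highest in the uncultured aged libraries.

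Most cytosolic synthetase genes were higher in aged cells cultured with vehicle than in aged cells taken without culture, and the mitochondrial genes differed both ways. A gene was called when its p from edgeR's quasi-likelihood test, with Benjamini-Hochberg adjustment across the whole table, was under 0.05. In the cytosolic class 12 of 18 were called higher and 3 lower, and both Gars and Kars were called higher. In the mitochondrial class 5 of 16 were called higher and 7 lower. Of all genes tested, 35.4% were called higher and 35.1% lower, so the cytosolic count of higher genes lies well above that share, the mitochondrial count a little below it, and the mitochondrial count of lower genes a little above its share. With this comparison all 6 B cell, all 8 plasma cell and all 7 erythroid markers were called lower, and 4 of 6 macrophage and all 4 dividing-cell markers were called higher. The median log2 fold change was 0.21 over the cytosolic genes, -0.12 over the mitochondrial genes and -0.01 over all genes. Under upper quartile scaling the cytosolic split was 11 higher and 5 lower (Nars was no longer called, and Dars and Hars were called lower), and the mitochondrial split was 4 higher and 8 lower.

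Aars and Iars changed most among the genes that rose. Aars had 231, 227 and 224 CPM in vehicle cultures, against 121, 111 and 117 CPM in uncultured aged cells. Iars had 201, 192 and 190 CPM in vehicle cultures, against 100, 98.9 and 95.1 CPM in uncultured aged cells. For both genes the lowest cultured library was far above the highest uncultured one, and the level was about doubled: the log2 fold change was 0.97 (SE 0.0347, edgeR adjusted p = 6.87e-24) for Aars and 0.99 (SE 0.0358, edgeR adjusted p = 8.75e-24) for Iars. Part of the Aars exons, 1326 of 9282 bases, overlaps Exosc6 on the same strand, so some of its reads could belong to that gene.

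Rars, the arginyl enzyme of the multisynthetase complex, had 118, 120 and 129 CPM in vehicle cultures, against 81.4, 80.2 and 74.8 CPM in uncultured aged cells (log2 fold change of 0.63 with SE 0.0453, edgeR adjusted p = 6.5e-15). Tars had 147, 138 and 139 CPM in vehicle cultures, against 96.1, 96.2 and 93.2 CPM (log2 fold change 0.57, SE 0.0452, edgeR adjusted p = 9.58e-14). Gars, the glycyl enzyme, had 181, 193 and 184 CPM in vehicle cultures, against 136, 132 and 139 CPM (log2 fold change 0.46, SE 0.0351, edgeR adjusted p = 4.51e-14). In none of these 3 genes did the groups overlap. Smaller rises were called for Lars (0.37), Eprs (0.36), Wars (0.36), Cars (0.31), Farsa (0.23), Farsb (0.19), Yars (0.16), Kars (0.13) and Nars (0.10), as log2 fold changes. Farsa and Farsb encode the 2 chains of the cytosolic phenylalanyl enzyme. The genes with the composite core in their window, Aars, Iars, Tars and Yars, were among the 12 of 18 cytosolic genes called higher. Aars and Iars had the highest fold changes of the 12, and that of Yars was among the lowest. The 4 cytosolic genes with an E-box in their window, Aars, Farsb, Iars and Tars, were also among the 12. Of the genes with the composite core, Yars was called higher, Aars and Iars lower and Tars was not called in aged against young cells. With uridine all 4 of them were called lower than in vehicle cultures. Windows were at hand for only 11 of the 18 cytosolic genes, and a link of either sequence to these changes was not tested.

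Vars, the valyl enzyme and the most abundant member, fell: it had 453, 453 and 451 CPM in vehicle cultures, against 846, 805 and 823 CPM in uncultured aged cells. Its log2 fold change was -0.87 (SE 0.0236, edgeR adjusted p = 9.9e-28), opposite in sign to those of Aars and Iars. Tarsl2 fell as well (log2 fold change -0.48, SE 0.11), with 16.5, 16.6 and 15.6 CPM in vehicle cultures, against 25.1, 24.4 and 18.7 CPM in uncultured aged cells. Qars, the glutaminyl enzyme, fell by 0.18 on the log2 scale. The seryl gene Sars (log2 fold change 0.02), the aspartyl gene Dars (-0.03) and the histidyl gene Hars (-0.05) were not called. By place in the cell, 5 of the 7 genes of the multisynthetase complex were called higher and 1 lower, and of the 12 cytosolic genes outside it 8 were called higher and 2 lower, both with more calls higher than the 35.4% and fewer lower than the 35.1% of all genes.

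**Figure D2:**
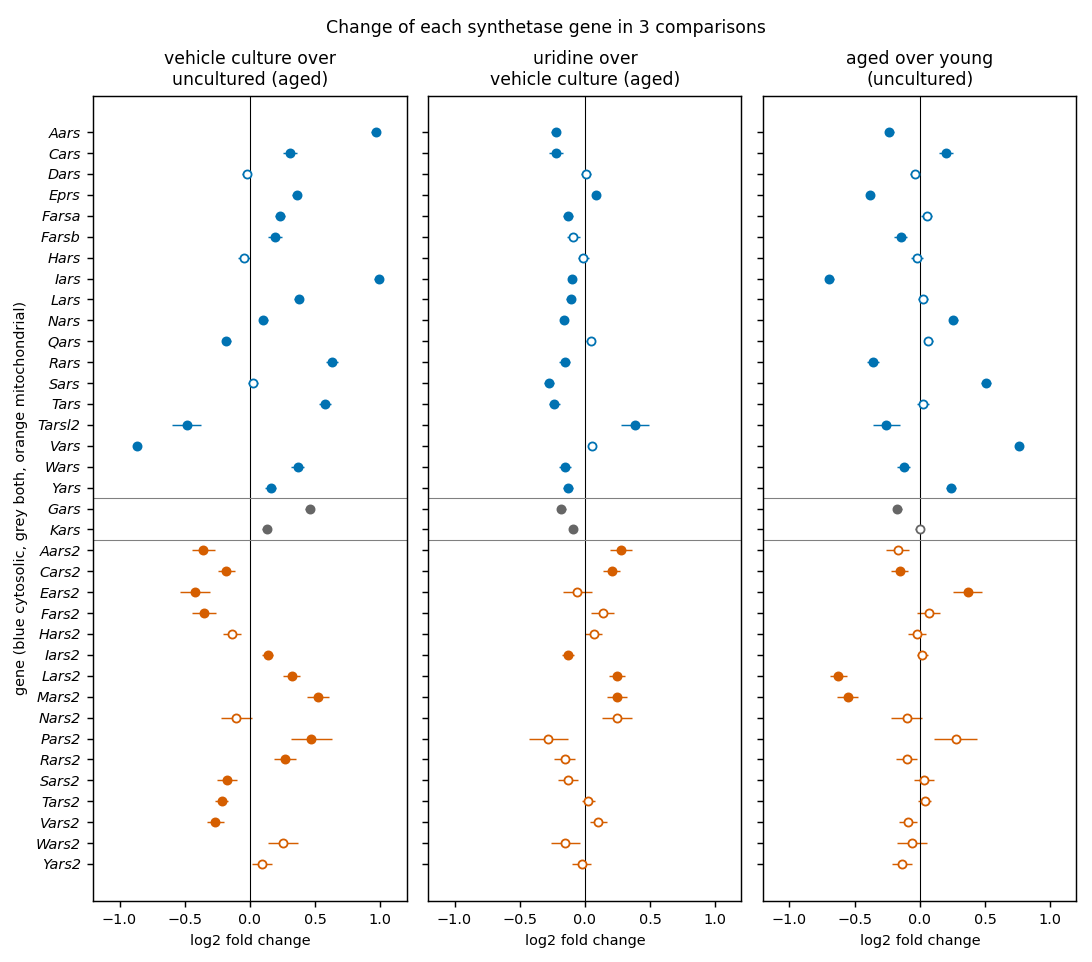
log2 fold change of each synthetase gene (horizontal axis, with its standard error as a bar) in the 3 comparisons, by gene from top to bottom, cytosolic in blue, Gars and Kars in grey, mitochondrial in orange. Filled points are called at an edgeR adjusted p under 0.05 and open points are not. With vehicle culture most blue points lie right of 0. The exceptions are Vars, Tarsl2 and Qars, called lower, and Dars and Hars, not called. With uridine most blue points lie left of 0.

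Among mitochondrial genes, Mars2, the mitochondrial methionyl enzyme, had 33.5, 34.4 and 28.7 CPM in vehicle cultures, against 22.0, 21.4 and 23.9 CPM in uncultured aged cells (log2 fold change of 0.52 with SE 0.0828, edgeR adjusted p = 8.61e-07). Lars2, the mitochondrial leucyl enzyme, had 54.1, 56.0 and 59.2 CPM, against 41.5, 48.2 and 46.0 CPM in uncultured aged cells (log2 fold change of 0.32 with SE 0.0655, edgeR adjusted p = 5.22e-05). All cultured libraries lay above all uncultured ones for both genes. Pars2 (0.47), Rars2 (0.27) and Iars2 (0.13), the prolyl, arginyl and isoleucyl enzymes of mitochondria, were the other genes called higher, by log2 fold change. Iars2 shares 2034 of its 8885 exon bases with Rab3gap2 on the opposite strand, and the sources used here do not say whether counting used strand.

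Aars2, the mitochondrial alanyl enzyme, had 22.2, 23.8 and 24.6 CPM in vehicle cultures, against 27.3, 31.8 and 31.3 CPM in uncultured aged cells (log2 fold change of -0.36 with SE 0.0885, edgeR adjusted p = 0.000547). Ears2, the mitochondrial glutamyl enzyme, had 12.6, 11.7 and 13.0 CPM in vehicle cultures, against 16.4, 17 and 16.5 CPM in uncultured aged cells (log2 fold change of -0.42 with SE 0.113, edgeR adjusted p = 0.00125). Neither gene's groups overlapped. Fars2 (-0.35), Vars2 (-0.26), Tars2 (-0.22), Cars2 (-0.18) and Sars2 (-0.17), the phenylalanyl, valyl, threonyl, cysteinyl and seryl enzymes, also fell, by log2 fold change. Of the 12 mitochondrial calls, 4 depended on single libraries. The Sars2 call was lost without vehicle replicate 1, 2 or 3 or uncultured aged replicate 1 (edgeR adjusted p = 0.0824, 0.134, 0.0749 and 0.362), the Cars2 call without vehicle replicate 2 or 3 or uncultured aged replicate 2 (0.0541, 0.0822 and 0.115), the Pars2 call without uncultured aged replicate 1 (0.058), and the Iars2 call without uncultured aged replicate 3 (0.0516). All 15 cytosolic calls held when any 1 of the 6 libraries was left out.

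The comparison of cytosolic and mitochondrial genes can also be made within a library, as the log2 ratio of the CPM of the 2 enzymes for the same amino acid, which no scaling factor alters. For 14 amino acids both genes are members. The mean ratio was higher in vehicle cultures than in uncultured aged cells in 13 of the 14 pairs, with a median difference of 0.28. It was lower in 1, Vars over Vars2, by 0.60. In 9 pairs the cultured libraries lay above the uncultured ones without overlap, and in 1 pair below. Of all single genes tested 36.1% lay above and 35.4% below without overlap. A ratio of 2 genes is a different measure, and its share over all genes was not computed, here or below. Aars over Aars2 differed most, with a mean log2 ratio of 3.27 in vehicle cultures, against 1.95 in uncultured aged cells, as Aars rose and Aars2 fell. The ratio of Iars to Iars2 was 0.70 in vehicle cultures, against -0.15 in uncultured aged cells, where the mitochondrial gene had the more reads.

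**Figure D3:**
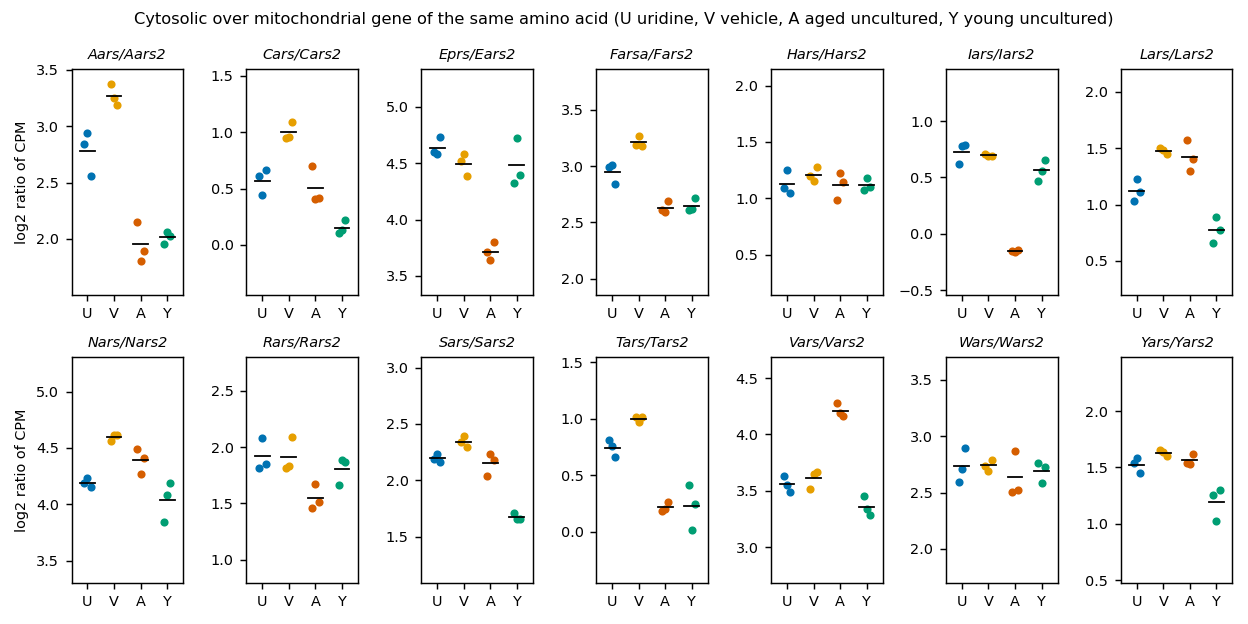
log2 ratio of the CPM of the cytosolic to the mitochondrial synthetase gene of the same amino acid, in each library (points) with the group mean (line), for 14 pairs. The panels span the same range of 2 log2 units, each around its own mean. The vehicle libraries lie above the uncultured aged ones without overlap in 9 pairs, and Vars over Vars2 is the pair that runs the other way.

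Many cytosolic synthetase genes were lower by small amounts in aged cells cultured with uridine than in those cultured with vehicle. The uridine cultures also held markers of other cells between the vehicle and the young level, as given above. In the cytosolic class 11 of 18 were called lower and 2 higher, Gars and Kars were both called lower, and in the mitochondrial class 4 of 16 were called higher and 1 lower. Of all genes tested, 20% were called higher and 18.1% lower, so the cytosolic count of lower genes lies above that share and both mitochondrial counts are close to it or below. The median log2 fold change was -0.12 over the cytosolic genes, 0.05 over the mitochondrial genes and -0.00 over all genes. This comparison shares the vehicle libraries with the one above.

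Sars had 121, 120 and 117 CPM in uridine cultures, against 145, 146 and 143 CPM in vehicle cultures (log2 fold change -0.28, SE 0.0378, edgeR adjusted p = 1.85e-07). Tars had 122, 121 and 118 CPM in uridine cultures, against 147, 138 and 139 CPM in vehicle cultures (log2 fold change -0.23, SE 0.0431, edgeR adjusted p = 3.38e-05). Aars had 196, 194 and 194 CPM in uridine cultures, against 231, 227 and 224 CPM in vehicle cultures (log2 fold change -0.22, SE 0.0326, edgeR adjusted p = 6.57e-07). The libraries of both groups were well separated in each of the 3 genes, although the change was far smaller than that of Aars or Tars with culture. Cars (-0.22), Gars (-0.18), Nars (-0.16), Wars (-0.16), Rars (-0.15), Yars (-0.13), Farsa (-0.13), Lars (-0.11), Iars (-0.10) and Kars (-0.09) were the other genes called lower, by log2 fold change.

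Tarsl2 and Eprs went the other way. Tarsl2 had 22.1, 23.1 and 18.4 CPM in uridine cultures, against 16.5, 16.6 and 15.6 CPM in vehicle cultures (log2 fold change 0.38, SE 0.108, edgeR adjusted p = 0.00457). Eprs, which encodes the joined glutamyl and prolyl enzymes of the cytosol, had 294, 297 and 299 CPM in uridine cultures, against 288, 281 and 271 CPM in vehicle cultures (log2 fold change 0.08, SE 0.0305, edgeR adjusted p = 0.0273). The Eprs groups did not overlap, but that call was lost with DESeq2 (adjusted p = 0.0972) and without uridine replicate 2 or 3 or vehicle replicate 2 or 3 (edgeR adjusted p = 0.0654, 0.098, 0.072 and 0.207). Vars (log2 fold change 0.05), Qars (0.04), Dars (0.01), Hars (-0.01) and Farsb (-0.09) were not called. Calls among the smaller falls also rested on single libraries: Kars was lost without uridine replicate 2 or 3 or vehicle replicate 1 or 2 (edgeR adjusted p = 0.0875, 0.0987, 0.0615 and 0.0655), Lars without uridine replicate 2 or 3 or vehicle replicate 3 (0.0535, 0.0677 and 0.0851), Iars without uridine replicate 1 or vehicle replicate 1 (0.0789 and 0.132), and Wars without uridine replicate 1 (0.0693). The other 9 of the 13 cytosolic calls held in each of the 6 fits that left 1 library out.

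Lars2 had 73.1, 61.7 and 65.9 CPM in uridine cultures, against 54.1, 56.0 and 59.2 CPM in vehicle cultures (log2 fold change 0.25, SE 0.0611, edgeR adjusted p = 0.00143), and its call held whichever library was left out. Aars2 had 27.2, 25.3 and 32.8 CPM in uridine cultures, against 22.2, 23.8 and 24.6 CPM in vehicle cultures (log2 fold change 0.28, SE 0.0863, edgeR adjusted p = 0.0105). Mars2 had 37.1, 40.1 and 37.3 CPM in uridine cultures, against 33.5, 34.4 and 28.7 CPM in vehicle cultures (log2 fold change 0.24, SE 0.0756, edgeR adjusted p = 0.00974). Every uridine library was above every vehicle library in all 3 genes, but the margin for Aars2 was under 1 CPM. Cars2 rose by 0.21 and Iars2 fell by 0.13 on the log2 scale. The other 4 mitochondrial calls were lost without some single library: Aars2 without uridine replicate 3 or vehicle replicate 1 (edgeR adjusted p = 0.179 and 0.0672), Mars2 without uridine replicate 2 or vehicle replicate 3 (0.0627 and 0.129), Cars2 without the same 2 libraries (0.0723 and 0.0651), and Iars2 without uridine replicate 2 or 3 or vehicle replicate 1 (0.0806, 0.102 and 0.0889). The count of mitochondrial genes called higher was 2 without uridine replicate 2 and also without vehicle replicate 3.

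The ratio of the cytosolic to the mitochondrial gene was lower in uridine than in vehicle cultures in 11 of the 14 pairs and higher in 3, with a median difference of -0.13. In 8 pairs the uridine libraries lay below the vehicle libraries without overlap, and in 0 above, where of all single genes tested 24.8% lay below and 25.2% above without overlap. Aars over Aars2 again differed most, with 2.78 in uridine cultures, against 3.27 in vehicle cultures. Nars over Nars2 (4.19 against 4.60) and Lars over Lars2 (1.12 against 1.48) were lower too, as mean log2 ratios in uridine against vehicle cultures, and Cars over Cars2 fell by 0.43.

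The uridine mean lay between the vehicle and the young mean in 28 of the 36 synthetase genes (15 of 18 cytosolic, both genes of shared compartment and 11 of 16 mitochondrial), near the 70.5% of all genes. Aars averaged 194 CPM in uridine cultures, 227 CPM in vehicle cultures and 137 CPM in young cells, and Tarsl2 averaged 21.2, 16.2 and 27.2 CPM in the same order. Markers of other cells stood the same way. Col1a1, a collagen gene of stromal cells, lay at 74.5 to 79.7 CPM in uridine cultures, 0.169 to 0.275 CPM in vehicle cultures and 264 to 281 CPM in young cells. Against vehicle cultures, all 4 stromal, all 7 erythroid, all 6 B cell and 6 of 7 neutrophil markers were called higher with uridine, and 4 of 6 macrophage markers were called lower. Their part in the synthetase values was not tested.

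**Figure D4:**
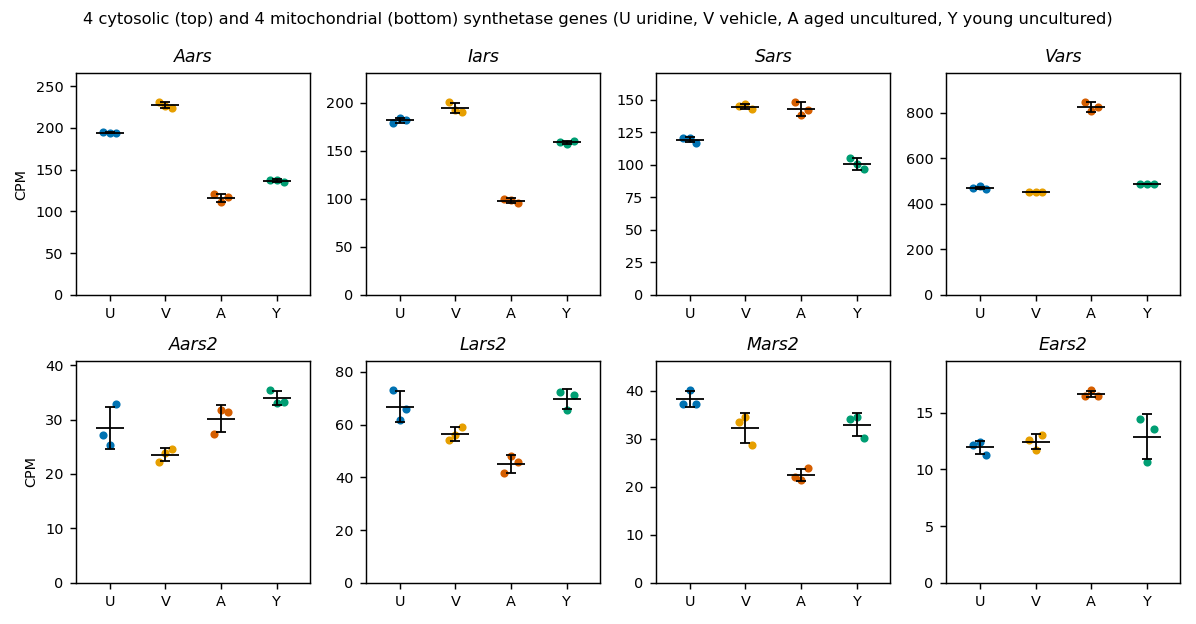
CPM of 4 cytosolic genes (Aars, Iars, Sars and Vars, top) and 4 mitochondrial genes (Aars2, Lars2, Mars2 and Ears2, bottom) in each library, with the group mean and SD (n = 3), for uridine culture (U), vehicle culture (V), uncultured aged (A) and uncultured young cells (Y). Vars is at 805 to 846 CPM in uncultured aged cells and at 451 to 488 CPM in all other libraries, and Aars is highest in vehicle cultures.

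Between aged and young cells taken without culture, synthetase genes moved in both directions with no common shift. In the cytosolic class 5 of 18 were called higher and 7 lower in aged cells, Gars was called lower, and in the mitochondrial class 1 of 16 was called higher and 3 lower. Of all genes tested, 33.2% were called higher and 32.1% lower, so the cytosolic shares are near those of all genes and the mitochondrial shares are below them. The median log2 fold change was -0.00 over the cytosolic genes, -0.07 over the mitochondrial genes and 0.02 over all genes. This comparison shares the uncultured aged libraries with that of vehicle culture, and the markers given above move with it: all 8 plasma cell markers and 5 of 6 B cell markers were called higher, and all 7 neutrophil, all 7 erythroid, 3 of 4 stromal and all 4 dividing-cell markers were called lower in aged cells.

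Vars had 846, 805 and 823 CPM in aged cells, against 486, 487 and 488 CPM in young cells (log2 fold change of 0.76 with SE 0.0235, edgeR adjusted p = 1.14e-25). Sars had 148, 138 and 142 CPM in aged cells, against 105, 100 and 96.3 CPM in young cells (log2 fold change of 0.50 with SE 0.0392, edgeR adjusted p = 8.05e-14). Neither gene's groups overlapped, and the aged cells had the higher level of both. Nars (0.26), Yars (0.24) and Cars (0.20), the asparaginyl, tyrosyl and cysteinyl enzymes, also rose, by log2 fold change.

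Iars had 100, 98.9 and 95.1 CPM in aged cells, against 159, 156 and 160 CPM in young cells (log2 fold change of -0.69 with SE 0.0361, edgeR adjusted p = 9.08e-19). Eprs had 215, 212 and 229 CPM in aged cells, against 289, 281 and 286 CPM in young cells (log2 fold change of -0.38 with SE 0.0314, edgeR adjusted p = 3.3e-13). Rars had 81.4, 80.2 and 74.8 CPM in aged cells, against 96.1, 104 and 103 CPM in young cells (log2 fold change of -0.36 with SE 0.0458, edgeR adjusted p = 1.56e-08). These 3 genes encode enzymes of the multisynthetase complex, and all their aged libraries lay below all the young ones. Of the 7 genes of that complex 3 were called lower and the other 4 were not called, and of the 12 cytosolic genes outside it 5 were called higher and 4 lower. Of all genes 33.2% were called higher and 32.1% lower, and the difference between the 2 sets was not tested. Tarsl2 (-0.26), Aars (-0.23), Gars (-0.17), Farsb (-0.15) and Wars (-0.12) fell as well, by log2 fold change. The calls of Farsb, Wars and Tarsl2 were lost without aged replicate 3 (edgeR adjusted p = 0.0602, 0.0713 and 0.28), which left 4 cytosolic genes called lower. Without young replicate 1 the calls of Farsb (0.114) and Wars (0.225) were lost, and without young replicate 3 that of Tarsl2 (0.231).

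Among mitochondrial genes, Lars2 had 41.5, 48.2 and 46.0 CPM in aged cells, against 72.3, 65.6 and 71.4 CPM in young cells (log2 fold change of -0.63 with SE 0.0642, edgeR adjusted p = 1.13e-10). Mars2 had 22.0, 21.4 and 23.9 CPM in aged cells, against 34.0, 34.5 and 30.2 CPM in young cells (log2 fold change of -0.55 with SE 0.0824, edgeR adjusted p = 3.44e-07). All aged libraries were below all young ones for both genes. Ears2 was the mitochondrial gene called higher, with 16.4, 17 and 16.5 CPM in aged cells, against 14.4, 10.7 and 13.6 CPM in young cells (log2 fold change of 0.37 with SE 0.112, edgeR adjusted p = 0.00462). Its call was lost without young replicate 2 (edgeR adjusted p = 0.067), the lowest of the young libraries. Cars2 was called lower (log2 fold change -0.15), but not without aged replicate 1 or 3 or young replicate 1 or 2 (edgeR adjusted p = 0.237, 0.056, 0.0742 and 0.106). The other 12 mitochondrial genes were not called, and their log2 fold changes ran from -0.17 for Aars2 to 0.27 for Pars2.

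The pair ratios were higher in aged cells in 7 and lower in 7 of the 14 amino acids, with a median difference of -0.01. The range was wide. Vars over Vars2 was 4.21 in aged cells, against 3.36 in young cells, and Lars over Lars2 was 1.42 in aged cells, against 0.77 in young cells, as mean log2 ratios. Eprs over Ears2 was 3.72 in aged cells, against 4.48 in young cells, and Iars over Iars2 was -0.15 in aged cells, against 0.56 in young cells. In 6 pairs the aged libraries lay above the young ones without overlap and in 2 below, where of all single genes tested 33.8% lay above and 33.1% below without overlap.

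Several members had distinct courses over the 4 groups. Iars, low in uncultured aged cells, stood at 178, 184 and 182 CPM in uridine cultures and 201, 192 and 190 CPM in vehicle cultures, against 159, 156 and 160 CPM in uncultured young cells. Vars, highest in uncultured aged cells, had 467, 476 and 464 CPM in uridine cultures and 453, 453 and 451 CPM in vehicle cultures, close to the 486, 487 and 488 CPM of young cells. Sars was at a like level in vehicle cultures (145, 146 and 143 CPM) and uncultured aged cells (148, 138 and 142 CPM), and lower in uridine cultures and in young cells. Dars and Hars moved least, and neither was called in any of the 3 comparisons. Hars2, Nars2, Wars2 and Yars2 were the mitochondrial genes called in none, and Hars and Hars2 share 195 exon bases on opposite strands. Hars2 was called lower with vehicle culture under DESeq2 size factors, upper quartile scaling or the 1 CPM filter, and without immunoglobulin genes and Jchain.

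Genes that act beside the synthetases gave the following. Of the complex scaffolds, Aimp2 (log2 fold change 0.23) and Eef1e1 (0.31) rose and Aimp1 (-0.28) fell with vehicle culture, Aimp1 fell with uridine (-0.15), and in aged against young cells Aimp1 rose (0.41) while Aimp2 fell (-0.21). Mars, the complex member outside the set, rose with vehicle culture (0.21, edgeR adjusted p = 1.63e-05) and was not called otherwise. The cytosolic elongation factors, of the step in which the ribosome lengthens the chain, were Eef1a1, Eef1b2, Eef1d, Eef1g and Eef2. With vehicle culture 5 of 5 were lower, in aged against young cells 5 of 5 were higher, and with uridine 3 of 5 were lower. The shares of all genes are 35.1%, 33.2% and 18.1%. Thus with vehicle culture these factors fell while most cytosolic synthetases rose. Of the 4 mitochondrial elongation factors, Gfm1 (0.45), Gfm2 (0.47) and Tufm (0.12) rose with vehicle culture, where 35.4% of all genes were called higher. Tsfm (-0.16) was not called, but its libraries lay lower without overlap: 30.2, 31.4 and 28.2 CPM, against 33.9, 33.4 and 33.1 CPM in uncultured aged cells. In aged against young cells 1 of the 4 was called higher and 2 lower, where 33.2% and 32.1% of all genes were. With uridine the smallest edgeR adjusted p of the 4 was 0.294.

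The list of ATF4 and its amino acid response genes held 23 genes, all tested. With vehicle culture 14 were called higher and 7 lower, where 35.4% and 35.1% of all genes were, with a median log2 fold change of 0.29. Slc7a11, the cystine carrier, had 43.9, 45.4 and 44.7 CPM in vehicle cultures, against 0.732, 0.765 and 0.758 CPM in uncultured aged cells (log2 fold change 5.88, SE 0.151). Mthfd2, of mitochondrial folate metabolism, had 91.4, 85.3 and 93.7 CPM, against 29.6, 33.9 and 31.6 CPM in uncultured aged cells (log2 fold change 1.51, SE 0.0595). Both were far apart between groups, as were Trib3 (1.55) and Nupr1 (1.86). Atf4 itself had 234, 237 and 236 CPM in vehicle cultures, against 452, 453 and 433 CPM in uncultured aged cells (log2 fold change -0.92, SE 0.0291), and Chac1 (-1.33), Slc3a2 (-1.12), Ddit3 (-0.85), Atf3 (-1.74), Ddit4 (-1.10) and Pck2 (-0.67) were the other genes called lower. ATF4 is known to be controlled largely through its translation, which these counts do not measure.

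With uridine 12 of the 23 were called lower and 3 higher, where 18.1% and 20% of all genes were, with a median log2 fold change of -0.12. Trib3 (-0.78), Nupr1 (-0.79), Slc7a11 (-0.58) and Chac1 (-0.65) fell most, and Asns, the asparagine synthetase, fell by 0.24 on the log2 scale. Atf3 rose, with 88.9, 87.5 and 93.6 CPM in uridine cultures, against 39.8, 38.2 and 37.7 CPM in vehicle cultures (log2 fold change 1.22, SE 0.0452). Ddit4 (0.46) and Slc7a5 (0.21) were the other genes called higher, and Atf4 was not called (-0.03). In aged against young cells 10 were called higher and 8 lower, near the 33.2% and 32.1% of all genes, among them Atf4 (0.71), Chac1 (2.46) and Slc3a2 (1.61) higher and Slc7a11 (-2.31) and Mthfd2 (-0.55) lower.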

How the data were processed

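RNA was sequenced as paired reads of 150 bp after poly-A selection, per the labels' protocols, and the submitters' processing notes name HISAT2 2.0.5 as aligner and mm10 as genome build. The authors deposited raw read counts per Ensembl gene ID. How reads were counted, with which gene models and whether by strand, is not stated in the sources used here. Of 54532 IDs, 54495 matched GENCODE M21 and 37 did not. Library totals ran from 16785065 to 19025802 counts.

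Genes kept by filterByExpr (16675) were scaled with TMM and fitted with 1 mean per group over all 12 libraries by the quasi-likelihood method of edgeR 4.0.16 (R 4.3.3), and Benjamini-Hochberg adjustment covered the whole table, at a threshold of 0.05. Groups came from the sample titles. Levels between genes used counts per kilobase of union exon length, or of the principal transcript, an alternative chosen after seeing the data. Alternatives were DESeq2 1.42.0, limma 3.58.1 (voom), DESeq2 size factors, upper quartile scaling, leaving out immunoglobulin genes and Jchain, no low-count filter, at least 1 CPM in 3 libraries, the 6 compared libraries alone, the replicate number as a block, a log2 threshold of 1, and leaving out each library in turn. The fit was tested on simulated data. The members and gene lists were chosen with earlier results of these data known, and every member could be named. Libraries of a group differed by more than sampling noise (chi-square of 2.27 to 3.94 per degree of freedom over genes of at least 50 counts per pair), so none was counted as a copy. RefSeq promoter windows were searched for 6 motifs on both strands, and 9 members were not searched. 1 gene outside the members is not reported here.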

Additional observations from a re-analysis of the deposited data

How the results depend on the processing

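No called member changed direction under any alternative run. Asking for an absolute log2 fold change of at least 1 left 0 cytosolic and 0 mitochondrial genes called in each direction of all 3 comparisons (edgeR), and 28.8%, 7.03% and 21.7% of all genes for vehicle culture against uncultured, uridine against vehicle and aged against young. Without the low-count filter, and with no fold threshold, 41.5%, 20.5% and 37.8% of all genes were called. With the filter 70.5%, 38.1% and 65.3% were called, among fewer genes tested. Cytosolic genes called higher with uridine numbered 1 under DESeq2, DESeq2 size factors or no filter, against 2, and Vars joined them under upper quartile scaling, the 1 CPM filter, limma voom or the 6 libraries alone. Upper quartile scaling gave 5 cytosolic genes called lower with vehicle culture, against 3. The summed cytosolic level in uridine over vehicle cultures was 0.934 with DESeq2 size factors, against 0.948, and in vehicle cultures over uncultured aged cells it was 1.025 with DESeq2 size factors and without immunoglobulin genes, against 1.033. The causes were not tested.

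Leaving out 1 library at a time gave, for vehicle culture, 12 cytosolic genes higher and 3 lower throughout, 5 mitochondrial genes higher throughout and 5 to 7 lower. For uridine it gave 1 to 2 cytosolic genes higher and 9 to 11 lower, and 2 to 4 mitochondrial genes higher and 0 to 1 lower. For aged against young it gave 5 to 6 and 4 to 7 cytosolic, and 0 to 1 and 2 to 4 mitochondrial genes. The share of all genes called ran from 66.0% to 67.6%, 31.7% to 32.7% and 60.6% to 61.9%, and the pairs with a higher ratio from 12 to 13, 2 to 4 and 6 to 9, in the same order of comparisons. Same-numbered replicates deviated independently (correlations of -0.06 to 0.04), and the replicate block changed 0 of 108 member calls. With 3 libraries a group, changes of the genes near 10 CPM, such as Pars2, Nars2 and Wars2, are the least precise.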

Other observations

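Interferon response genes, among which the tryptophanyl enzyme gene Wars is counted in human cells, were followed as a list of 9. With vehicle culture 8 of 9 were called higher by edgeR, and with uridine 9 of 9 were called lower, where 35.4% and 18.1% of all genes were. Isg15, a ubiquitin-like interferon product, had 117, 120 and 124 CPM in uridine cultures, against 217, 221 and 219 CPM in vehicle cultures, and 3.06, 2.99 and 2.55 CPM in uncultured aged cells. Wars had 80.2, 86.2 and 87.7 CPM in uridine cultures, 93.0, 96.0 and 94.1 CPM in vehicle cultures and 73.4, 74.2 and 72.3 CPM in uncultured aged cells. Both genes were highest in vehicle cultures, with a far wider span for Isg15. Myc, whose product is known to raise genes of protein synthesis, had 234, 216 and 233 CPM in uridine cultures, against 259, 264 and 260 CPM in vehicle cultures, and was called lower (log2 fold change -0.20). It had 200, 210 and 211 CPM in uncultured aged cells. Of the 4 tested genes Myc, Ppargc1b, Nrf1 and Tfam, 1 was called higher with uridine and 1, Myc, lower. Of all genes 20% and 18.1% were. Nrf1 had 63.2, 57.2 and 59.3 CPM in uridine cultures, against 48.7, 54.1 and 47.9 CPM in vehicle cultures.

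Of the other enzymes that charge or check transfer RNA, Dtd2, which removes wrongly attached amino acids, had 19.8, 17.2 and 13.8 CPM in aged uncultured cells, against 9.74, 8.43 and 7.76 CPM in young cells (log2 fold change of 0.97 with SE 0.124, edgeR adjusted p = 1.66e-08). Pstk, of selenocysteine-tRNA synthesis, had 14.8, 13.1 and 12.6 CPM in aged cells, against 10.6, 7.94 and 9.02 CPM in young cells (log2 fold change of 0.55 with SE 0.13, edgeR adjusted p = 0.000394). The groups did not overlap for either gene. In aged against young cells, 2 of 3 listed genes that check charged transfer RNA were called higher and 0 lower. Of 2 listed genes of selenocysteine-tRNA synthesis, 1 was called higher and 0 lower. Of all genes 33.2% were called higher and 32.1% lower. Qrsl1, a subunit of the enzyme that makes mitochondrial glutaminyl-tRNA, rose in aged against young cells (0.34) and fell with vehicle culture (-0.42), as log2 fold changes. Gatc, of the same enzyme, went the other way with vehicle culture (0.35), at 32.1, 34.9 and 31.8 CPM, against 25.9, 27.9 and 24.0 CPM in uncultured aged cells. Of the 4 genes listed for that enzyme and for mitochondrial formylation, 2 were called higher and 0 lower in aged against young cells. With vehicle culture 1 was called higher and 1 lower, where 35.4% and 35.1% of all genes were.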
